A study of Mus musculus with 33 samples.

Results

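Tumours of one mouse cancer line, grown under 4 treatments, were ranked by how strongly they expressed 3 genes of dividing cells, and the 11 highest of 33 tumours were compared with the 11 lowest. The ranking used Mki67, which codes for the proliferation antigen Ki-67, Top2a, the topoisomerase that untangles replicated chromosomes, and Cdk1, the kinase that drives entry into mitosis. The score of a tumour was the mean log2(FPKM + 0.5) of these genes minus the mean of its treatment group, where FPKM are fragments scaled to exon length and to the total of the library. The high class and the low class thus hold 22 of the 33 tumours, and 11 tumours lie between them. The classes were thus chosen by measured FPKM of these 3 genes, whose own values are given as a description.

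All tumours were transplants of Myc-CaP, a line from a mouse prostate carcinoma with a MYC transgene, placed under the skin of both flanks of male FVB mice. Treatment started at a tumour volume of 50 mm3 and lasted 3 weeks. The groups were ESK981, a kinase inhibitor given by mouth whose targets include the lipid kinase PIKfyve, at 15 mg/kg on 5 days a week (8 tumours), ESK981 together with an antibody against PD-1, called the combination here (8 tumours), anti-PD-1 at 200 µg per mouse 3 times a week (7 tumours), and vehicle (10 tumours). Per the labels, ESK981 was set against an oral vehicle and the antibody against an isotype control. Host strain and cell line were the same in all groups. They came from 20 mice, of which 13 gave 2 tumours and 7 gave 1. Tumours are named by group, a mouse number that pairs nothing across groups, and flank (L or R).

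A dividing cell passes through G1, S phase, in which DNA and histones are made, G2 and mitosis. E2F factors switch on the replication genes once cyclin-dependent kinases have inactivated the RB family. Later, B-MYB and FOXM1, recruited with the MuvB complex to CHR and CCAAT elements, switch on the genes of G2 and mitosis. Growing cells also need nucleotides, ribosomes, amino acids and membrane lipids, and cholesterol synthesis is governed by SREBP2 through sterol response elements.

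Promoters of 4 genes that were higher in the high class show these elements. RefSeq promoters on GRCm38.p6 were searched on both strands, from 250 bases before to 50 bases after each start, for the CCAAT box (CCAAT), the CHR (TTTGAA or TTCGAA), an E2F site (TTTGGCGC or TTTCGCGC) and a sterol response element (TCACCCCAC). The stretches below run 5′ to 3′ on the strand of the gene, from 160 bases before to 20 after the start. Ccnb2, a mitotic cyclin (chr9:70421535-70421714, minus strand), and Cdc20, an activator of the anaphase-promoting complex (chr4:118437324-118437503, minus strand), have CCAAT boxes and the CHR in capitals. Mcm6, a subunit of the replicative helicase (chr1:128359686-128359865, minus strand), has E2F sites in capitals, of which 2 overlap on opposite strands. Hmgcs1, the enzyme that makes HMG-CoA for sterols (chr13:119690191-119690370, plus strand), has the sterol response element in capitals. The stretches of Mcm6 and Hmgcs1 also hold CCAAT boxes on the opposite strand, left in lower case.
Ccnb2: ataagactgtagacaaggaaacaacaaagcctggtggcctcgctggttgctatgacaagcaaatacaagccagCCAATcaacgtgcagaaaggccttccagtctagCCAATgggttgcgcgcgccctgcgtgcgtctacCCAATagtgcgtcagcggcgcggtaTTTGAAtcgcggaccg
Cdc20: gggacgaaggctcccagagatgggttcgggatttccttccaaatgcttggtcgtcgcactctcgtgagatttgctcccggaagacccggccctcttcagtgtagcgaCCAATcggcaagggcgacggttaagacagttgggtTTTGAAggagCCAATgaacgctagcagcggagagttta
Mcm6: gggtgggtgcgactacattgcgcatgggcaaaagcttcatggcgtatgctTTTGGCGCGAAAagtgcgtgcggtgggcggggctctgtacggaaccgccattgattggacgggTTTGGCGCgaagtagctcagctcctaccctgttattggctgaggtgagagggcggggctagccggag
Hmgcs1: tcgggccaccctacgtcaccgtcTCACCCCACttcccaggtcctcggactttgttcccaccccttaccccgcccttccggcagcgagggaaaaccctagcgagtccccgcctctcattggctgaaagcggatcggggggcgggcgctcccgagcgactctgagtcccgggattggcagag

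Across the G2/M list, 52 of 63 genes had a promoter in the RefSeq table. Of their 56 promoters, 75.0% held a CCAAT box and 75.0% a CHR, against 37.8% and 13.9% of the 11765 promoters of all genes tested. The CCAAT box was not particular to this list. It stood in 83.3% of cholesterol and 59.2% of G1/S promoters, and in 25.0% of those for ribosome biogenesis. Both elements stood together in 64.3% of the G2/M promoters and in 5.72% of all. Among 49 promoters of the G1/S list, 30.6% held the E2F site, against 1.54% of all. The CCAAT box stood in 40.6% of the promoters of genes called higher and in 35.3% of those called lower. For the CHR these shares were 16.4% and 19.6%, and for the E2F site 2.91% and 0.35%. The sterol element was found in 1 of 12 promoters of the cholesterol list (8.33%), that of Hmgcs1, in 0.443% of the promoters of genes called higher and in 0.629% of all. A match describes letters in a window and is not evidence of binding.

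The score ran over a wide and lopsided range. In the high class it lay between 0.33 and 0.997 with a median of 0.63, and in the low class between −2.09 and −0.12 with a median of −0.53. Mki67 had a lowest, median and highest FPKM of 18.3, 27.4 and 36.1 in the high class and of 2.70, 14.2 and 20.5 in the low class. Top2a had 22.7, 25.9 and 34.5 FPKM in the high class, against 3.01, 12.4 and 17.7 in the low class. Cdk1 had 7.69, 10.8 and 12.8 FPKM in the high class, against 1.96, 5.10 and 6.89 in the low class. In uncentred FPKM the classes overlapped for Mki67 and were apart for Top2a and Cdk1.

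At the borders the classes were close to the middle tumours. Anti-PD-1 5L was the last tumour inside the high class with a score of 0.33, and combination 4R was just outside with 0.30. Anti-PD-1 4L was the first inside the low class with −0.12, and vehicle 3L was just outside with −0.10. The low class is therefore a mixture: 5 of its tumours scored between −0.20 and −0.12, and ESK981 1R and ESK981 2R scored −2.04 and −2.09.

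**Figure D1:**
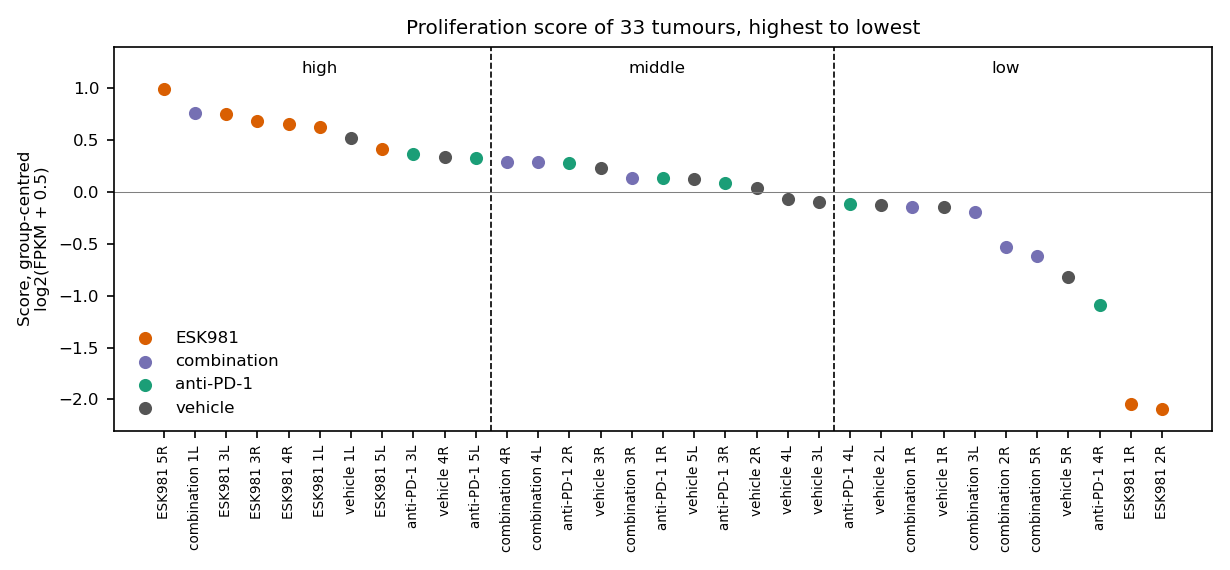
Score of each tumour (mean log2(FPKM + 0.5) of Mki67, Top2a and Cdk1 minus the mean of the treatment group), from highest to lowest, coloured by treatment, with dashed lines between the classes. The high class spans 0.33 to 0.997, and ESK981 1R and ESK981 2R lie apart at −2.04 and −2.09.

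The treatments were unevenly spread over the classes. ESK981 gave 6 tumours to the high class, 0 to the middle and 2 to the low class. The combination gave 1, 3 and 4 to the high, middle and low class, anti-PD-1 gave 2, 3 and 2, and vehicle gave 2, 5 and 3. The score was centred on the group mean, and the low values of ESK981 1R and 2R placed the other 6 ESK981 tumours at or above 0.41. Left flanks made up 7 of the high and 3 of the low tumours, and right flanks 4 and 8.

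The flanks of a mouse often differed. Among the 13 mice with both tumours, 2 mice had both in the high class, 1 had both in the low class and 3 had the left tumour high and the right tumour low. The median absolute difference between flanks was 0.40 and the largest was 2.67, in ESK981 mouse 1, where the SD of the score over all tumours was 0.70. In vehicle mouse 1 the left tumour scored 0.53 and the right −0.15, and in combination mouse 1 they scored 0.77 and −0.14. These 3 mice give a comparison of high with low within an animal and a treatment. In all 3 the high tumour was the left one, so class and flank cannot be told apart there. No fit held a term for the flank.

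Sequencing depth and RNA composition moved with the class. Fragments per tumour had a lowest, median and highest value of 1.67e+07, 2.40e+07 and 2.77e+07 in the high class, against 9.90e+06, 1.83e+07 and 3.24e+07 in the low class. The summed FPKM of the 13 mitochondrially encoded protein genes had values of 3991, 6655 and 15044 in the high class and of 5022, 17036 and 90856 in the low class. Ribosomal-RNA-like FPKM had values of 19591, 37960 and 191556 in the high class and of 15043, 104327 and 500377 in the low class. Of the low class, 3 libraries stood apart. Vehicle 5R and anti-PD-1 4R had 9.90e+06 and 1.13e+07 fragments and the most mitochondrial RNA (90856 and 52728 FPKM), and combination 5R had 500377 ribosomal-RNA-like FPKM. ESK981 1R and 2R were of another kind, with 3.24e+07 and 2.42e+07 fragments and 5738 and 6341 mitochondrial FPKM, values within the range of the high class or above it in depth. Results below are given with these 5 tumours and, where it matters, without them.

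**Figure D2:**
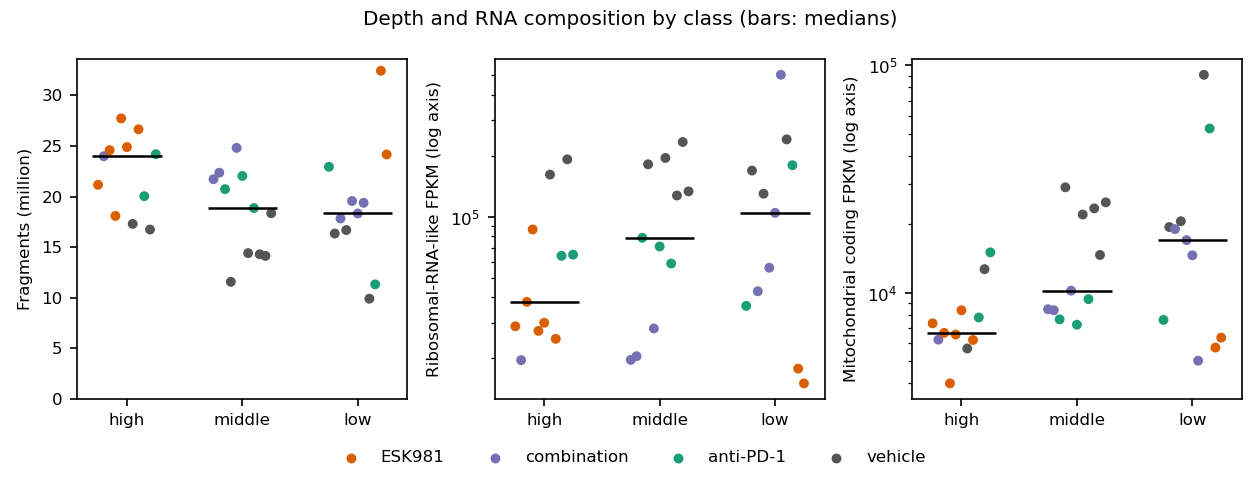
Fragments per tumour, ribosomal-RNA-like FPKM and mitochondrial coding FPKM (log axes) in high, middle and low tumours, coloured by treatment, with bars at the class medians. The medians are 2.40e+07 and 1.83e+07 fragments, and 6655 and 17036 mitochondrial FPKM, in high and low tumours.

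Apart from the 3 genes of the score, 15843 genes were compared over all tumours by limma, with terms for treatment and class and the mouse as a random block. At an adjusted p under 0.05, 3888 genes (24.5%) differed between the classes, 3570 (22.5%) higher and 318 (2.01%) lower in the high class. FPKM are shares of a total, and the median of all genes was itself 0.17 higher (log2) in the high class. After rescaling each tumour by median-of-ratios size factors, that median was −0.02, and 2902 genes (18.3%) were called, 1522 (9.61%) higher and 1380 (8.71%) lower. The share of calls that were higher was thus 91.8% on FPKM as deposited and 52.4% after rescaling, and small differences are best read relative to 0.17. Without ESK981 1R and 2R, 3447 genes (21.8%) were higher and 282 (1.78%) lower, and without the 3 libraries that stood apart, 2842 (17.9%) were higher and 1145 (7.23%) lower. Without all 5 tumours, 1785 genes (11.3%) were higher and 1124 (7.09%) lower, and the median of all genes was 0.07. Where ESK981 1R and 2R are left out, the remaining 6 ESK981 tumours are all high. With a term per treatment, ESK981 then adds nothing to the difference between high and low, which rests on the other treatments. Across FPKM as deposited, rescaled FPKM and the fits without ESK981 1R and 2R, without the 3 libraries that stood apart, and without all 5, 1033 genes were called higher every time and 132 lower every time. These are called stable below, a word that does not cover the fits on mice given next. On mouse means with the score as a continuous term, 2304 genes (14.5%) were higher and 91 (0.574%) lower. Within the 13 mice with both flanks, with the mouse as a fixed term, 102 genes (0.644%) were called, 84 (0.53%) higher and 18 (0.114%) lower. In 5 of these mice both tumours were of 1 class, which adds nothing to the difference between classes. Only 3 held a high and a low tumour. Of the 89 called genes that are named for this comparison, 64 were also called on mouse means and 22 within mice, and all 89 kept their sign in both fits. Classes rebuilt from rescaled values called 2694 genes (17.0%), 1416 (8.94%) higher and 1278 (8.07%) lower.

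**Figure D3:**
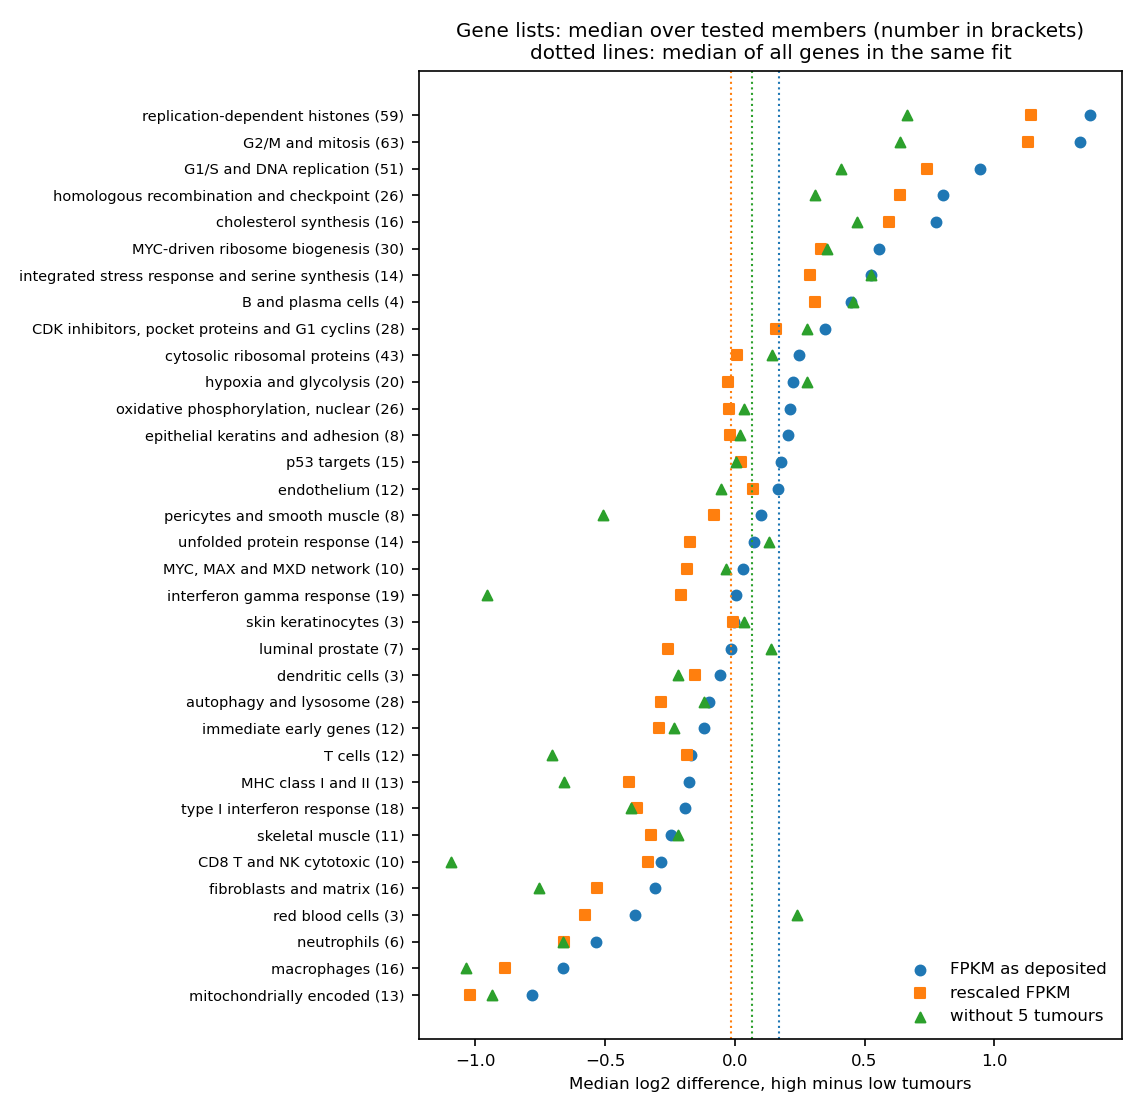
Median log2 difference, high minus low tumours, of the tested members of each gene list on deposited FPKM, on rescaled FPKM and without 5 tumours, with dotted lines at the median of all genes in the same fit. Histone, mitotic and replication lists stand at the top (1.37, 1.33 and 0.94 on deposited FPKM) and macrophage and mitochondrial lists at the bottom (−0.66 and −0.78).

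Genes of the cell cycle were higher throughout in the high class. They are known to be expressed together with the 3 genes of the score, so their counts describe what the score captured. In bulk tumours, more dividing cells and more of these RNAs per cell cannot be told apart. All 63 tested genes of G2 and mitosis were called higher, with a median log2 difference of 1.33, and 62 were called after rescaling (median 1.13). Without the 5 tumours, 58 were called and the median was 0.64, and within mice 28 were called, against 0.53% of all genes (median 1.13). Over all genes, 22.5% were called higher, 9.61% after rescaling and 11.3% without the 5 tumours. These shares apply to every list below. The B-type cyclin gene Ccnb1 (chromosome 13, 100778650 to 100786570, minus strand) had a lowest, median and highest FPKM of 8.30, 10.05 and 14.4 in high tumours, against 1.13, 4.26 and 6.56 in low tumours. Even uncentred, the classes did not overlap for Ccnb1 (log2 difference 1.65 ± 0.18, SE). Cdc20, whose promoter is shown above, had 13.7, 17.02 and 18.4 FPKM in high tumours and 1.78, 7.57 and 11.2 in low tumours (1.59 ± 0.18). Nek2, a centrosome kinase, and Spc25, a kinetochore subunit, differed by 1.29 ± 0.14 and 1.21 ± 0.13.

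Replication genes followed with smaller differences. Of 51 G1/S and DNA replication genes, 50 were called higher (median 0.94), 47 after rescaling, 32 without the 5 tumours (median 0.41) and 2 within mice (median 0.77). Mcm6 had 13.8, 17.1 and 20.6 FPKM in high tumours, against 2.23, 9.26 and 13.4 in low tumours (1.39 ± 0.18), with no overlap. Gins1, of the same helicase complex, differed by 1.14 ± 0.13. Rfc4, of the clamp loader, differed by 0.96 ± 0.13. In homologous recombination and the replication checkpoint, 24 of 26 genes were called higher (median 0.80), among them the BRCA1 partner Bard1 at 1.10 ± 0.15.

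Replication-dependent histones had the widest list difference. Of 59 tested histone genes, 56 were called higher (median 1.37), 53 after rescaling, 40 without the 5 tumours and 2 within mice (median 0.88). Their summed FPKM had a lowest, median and highest value of 2105, 3228 and 3684 in high tumours and of 500.5, 1391 and 2770 in low tumours. The linker histone Hist1h1d had 93.1, 120.1 and 152 FPKM in high tumours, against 18.7, 65.6 and 84.0 in low tumours (1.32 ± 0.17). Histone copies are near-identical, so reads could be split between them, and most of their messages lack a poly(A) tail, which libraries from total RNA retain.

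The regulators of the cycle differed from one another. Foxm1, the activator of mitotic genes, had 3.90, 5.35 and 8.45 FPKM in high tumours and 0.546, 3.15 and 3.85 in low tumours (1.35 ± 0.19). Mybl2, which codes for B-MYB, differed by 1.19 ± 0.20, and its call was lost without the 5 tumours (0.44, limma adjusted p = 0.0592). Lin54, the MuvB subunit that binds the CHR, differed by 0.81 ± 0.12, and the pocket protein gene Rbl1 by 0.98 ± 0.15. E2f1 itself differed by 0.43 ± 0.14 (adjusted p = 0.0255), but by 0.01 without the 5 tumours (adjusted p = 0.982). It also lost its call without ESK981 mouse 1, ESK981 mouse 2 or anti-PD-1 mouse 4 (0.32, 0.36 and 0.41, adjusted p = 0.12, 0.0798 and 0.0505). Cyclin D1 (Ccnd1), which activates CDK4 and CDK6 in G1, differed by 0.76 ± 0.16 (adjusted p = 0.00084) and by 0.31 without the 5 tumours (adjusted p = 0.241).

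Of 28 CDK inhibitors, pocket proteins and G1 cyclins, 14 were called higher and 0 lower (median 0.35), against 22.5% and 2.01% of all genes. After rescaling, 10 were higher and 2 lower. The CDK inhibitor gene Cdkn1b was higher rather than lower in the high class, with 11.6, 17.5 and 22.6 FPKM against 8.94, 11.3 and 15.6 in low tumours (0.40 ± 0.11, adjusted p = 0.00594), a call lost after rescaling (adjusted p = 0.334). Cdkn1a, the p53-induced inhibitor p21, did not pass the test (−0.10 ± 0.13, adjusted p = 0.618), nor did Rb1 (0.16 ± 0.13, adjusted p = 0.373). The classes overlapped for both.

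Myc did not separate the classes. It had a lowest, median and highest FPKM of 3.30, 5.44 and 8.44 in high tumours and of 2.93, 5.12 and 7.32 in low tumours. The log2 difference was 0.01 ± 0.19 (adjusted p = 0.978), and it took either sign under the alternatives. The transgene of this line is known to be human MYC, and how its reads were counted is not given in the sources used here. Of 10 tested genes of the MYC, MAX and MXD network, 2 were called higher, a share near the 22.5% of all genes.

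**Figure D4:**
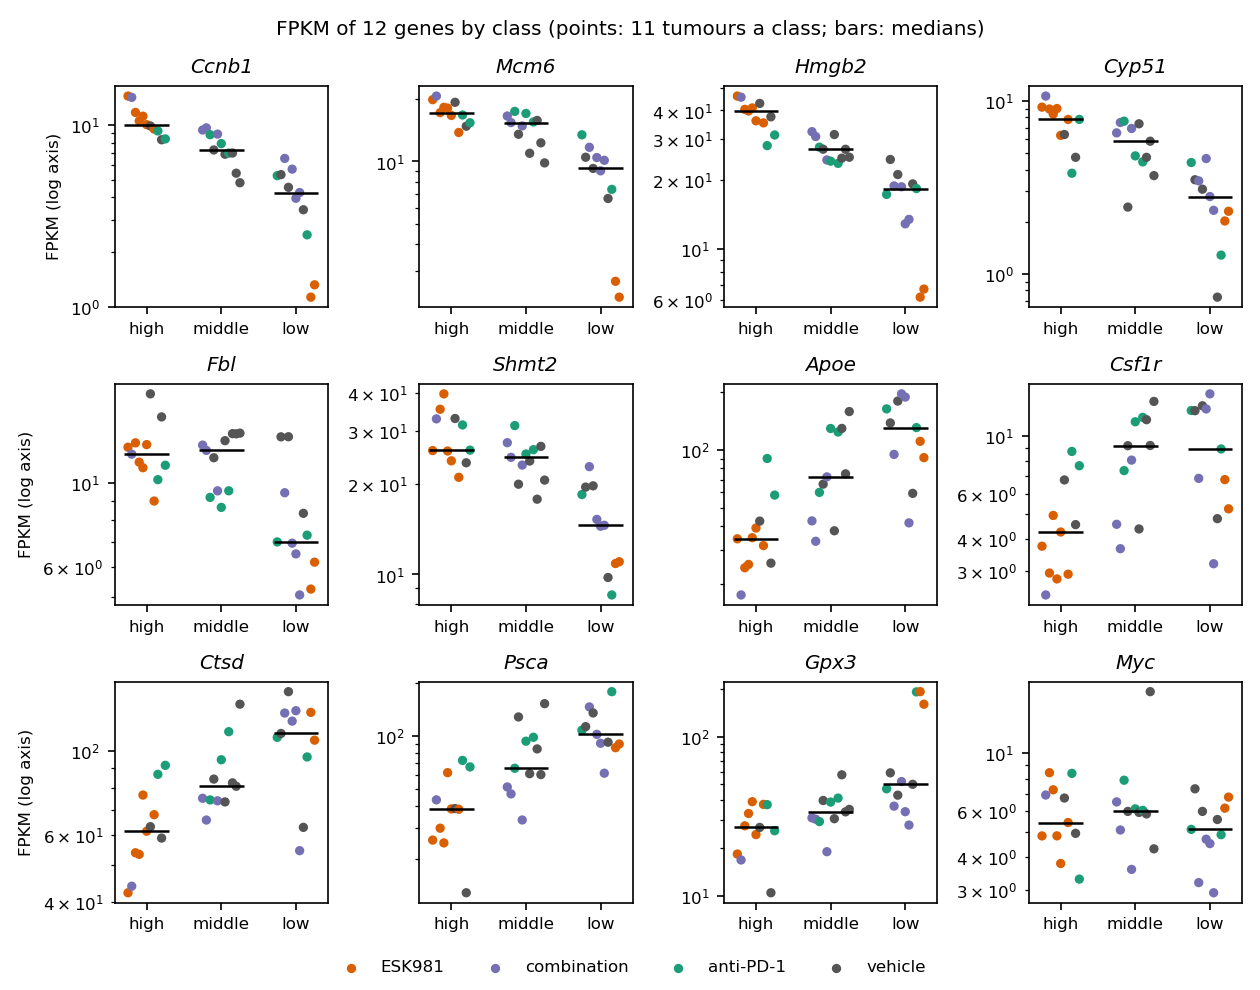
FPKM (log axes) of 12 of the named genes in high, middle and low tumours, 1 point per tumour coloured by treatment, with bars at class medians. Ccnb1 is above 8.2 FPKM in every high tumour and below 6.6 in every low tumour, while Myc overlaps throughout.

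Ribosome biogenesis genes were nevertheless higher in the high class. Of 30 genes of this MYC-responsive list, 25 were called higher and 0 lower (median 0.55), 19 after rescaling (median 0.33) and 12 without the 5 tumours. On mouse means with the score 14 were called higher, and within mice 0 (median 0.48). Fbl, the methyltransferase of nucleolar ribosomal RNA processing, had 8.98, 11.96 and 17.3 FPKM in high tumours and 5.05, 6.99 and 13.3 in low tumours (0.71 ± 0.10, adjusted p = 1.17e-05). Ncl, nucleolin, differed by 0.59 ± 0.11 (adjusted p = 0.000263), and both genes were stable. Messages for the ribosomal proteins themselves were different. Of 43, 15 were called higher on deposited FPKM (median 0.25), against 22.5% of all genes. After rescaling 0 were called higher (median 0.01, against −0.02 for all genes).

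Cholesterol synthesis genes were higher in the high class. Of 16 genes, 15 were called higher (median 0.77), 12 after rescaling, 9 without the 5 tumours (median 0.47) and 1 within mice (median 0.73). Over all genes, 22.5%, 9.61%, 11.3% and 0.53% were called higher in these fits. Cyp51, lanosterol demethylase (chromosome 5, 4081145 to 4104746, minus strand), had 3.81, 7.80 and 10.6 FPKM in high tumours, against 0.732, 2.79 and 4.63 in low tumours (1.37 ± 0.21, adjusted p = 1.99e-05). Hmgcs1, whose promoter is shown above, had 6.499, 11.6 and 18.2 FPKM in high tumours and 2.19, 4.69 and 7.75 in low tumours (1.26 ± 0.18, adjusted p = 9.98e-06). Idi1, isopentenyl diphosphate isomerase, differed by 1.35 ± 0.21 (adjusted p = 1.97e-05). These 3 genes were stable. The list mean was higher in the high tumours of each treatment, by 1.10 in ESK981, 0.95 in the combination, 0.61 in anti-PD-1 and 0.74 in vehicle.

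Serine synthesis and amino acid genes of the integrated stress response were the only list outside the cycle, replication, recombination and histone lists whose means did not overlap between the classes. The list mean, centred on the group, lay between −0.117 and 0.47 in high tumours and between −0.62 and −0.122 in low tumours, a narrow margin. Of 14 genes, 9 were called higher and 0 lower (median 0.52), against 22.5% of all genes called higher. After rescaling 5 were called higher, and 4 without the 5 tumours, where the median remained 0.52. On mouse means with the score 5 were called higher, and within mice 0 (median 0.43). Shmt2, the mitochondrial serine hydroxymethyltransferase, had 21.03, 25.9 and 39.8 FPKM in high tumours and 8.55, 14.6 and 22.8 in low tumours (1.004 ± 0.15, adjusted p = 1.38e-05). Asns, asparagine synthetase, had 20.03, 26.0 and 41.5 FPKM in high tumours and 11.8, 14.01 and 22.02 in low tumours (0.81 ± 0.15, adjusted p = 0.000194). Phgdh, the first enzyme of serine synthesis, differed by 0.59 ± 0.11 (adjusted p = 0.000338), and Psph, the last, by 0.69 ± 0.16 (adjusted p = 0.00203).

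Over all tumours, energy metabolism separated the classes less. Of 20 hypoxia and glycolysis genes, 5 were called higher and of 26 nuclear genes of oxidative phosphorylation 6, shares near the 22.5% of all genes. Among the 5 were Eno1, enolase, at 0.66 ± 0.11 (adjusted p = 5.44e-05) and Ldha, lactate dehydrogenase, at 0.68 ± 0.17 (adjusted p = 0.00415). Hypoxia and glycolysis genes called higher numbered 0 after rescaling, 1 without ESK981 1R and 2R and 12 without the 3 libraries that stood apart. Of all genes, 9.61%, 21.8% and 17.9% were called higher in these fits. In each of them 1 gene of the list was called lower, against 8.71%, 1.78% and 7.23% of all genes. Without ESK981 1R and 2R the difference of Ldha was 0.30 (adjusted p = 0.208). In anti-PD-1 the mean of this list was lower in the high tumours, by −0.55. There the low tumour anti-PD-1 4R stood at 0.91, while 4L (−0.28) was near the high tumours (−0.18 and −0.29). In ESK981 the list mean was higher in the high tumours by 0.70, against 1R and 2R (−0.62 and −0.43). After rescaling, 0 genes of oxidative phosphorylation were higher and 3 lower, against 9.61% and 8.71% of all genes. The angiogenic factor Vegfa did not pass (0.06 ± 0.28, adjusted p = 0.905).

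Of the 12 genes with the largest rises outside the cell cycle lists, 11 are described here. They were Hmgb2, Cep55, Cyp51, Fbxo5, Kif18b, Idi1, Aspm, Prr11, Stmn1, Troap and Fam64a, and these 11 were stable. The cycle lists are not complete, and apart from Cyp51 and Idi1 of the cholesterol list most of these genes are known from dividing cells. Like the listed cycle genes, those describe what the score captured. Hmgb2, a chromatin protein abundant in cycling cells (chromosome 8, 57511907 to 57515999, plus strand), had 28.2, 39.8 and 46.2 FPKM in high tumours, against 6.19, 18.3 and 24.5 in low tumours (1.499 ± 0.16, adjusted p = 8.09e-07). Fbxo5, the inhibitor of the anaphase-promoting complex, differed by 1.35 ± 0.16, and Stmn1, the microtubule destabiliser stathmin, by 1.32 ± 0.15 (adjusted p = 1.62e-06 and 9.12e-07). For 7 of the 11 the group-centred classes did not overlap. The genes were picked for their large differences between these same classes, and the share over all genes is not given here.

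Fewer genes were lower in the high class, and macrophage genes were prominent among them. Of 16 macrophage markers, 8 were called lower and 0 higher (median −0.66), against 2.01% of all genes called lower. After rescaling 12 were lower, and without the 5 tumours 14 (median −1.03). On mouse means with the score, where limma called 0.574% of genes lower, 0 passed (median slope −0.17). Within mice, where it called 0.114% lower, 2 passed, Apoe and Csf1r (median −0.72). Their summed FPKM had a lowest, median and highest value of 123, 221 and 539 in high tumours and of 207, 684 and 1157 in low tumours, so the classes overlapped, and no marker was at 0 in all tumours. Apoe, the apolipoprotein of macrophages and other cells (chromosome 7, 19696109 to 19699188, minus strand), had 17.5, 34.3 and 90.2 FPKM in high tumours, against 41.6, 131 and 196 in low tumours. It differed by −1.76 ± 0.27 (adjusted p = 1.98e-05). Csf1r, the receptor that macrophages need to survive, had 2.43, 4.26 and 8.73 FPKM in high tumours and 3.21, 8.92 and 14.6 in low tumours (−0.80 ± 0.22, adjusted p = 0.00789). Mrc1, the mannose receptor, differed by −1.18 ± 0.30 (adjusted p = 0.00408), the complement gene C1qb by −0.68 ± 0.20 (adjusted p = 0.0119) and Adgre1, which codes for F4/80, by −0.66 ± 0.21 (adjusted p = 0.0193). C1qb and Adgre1 lost their calls without combination mouse 1 (−0.57 and −0.54, adjusted p = 0.0526 and 0.0814), and Adgre1 also without vehicle mouse 4 (−0.59, adjusted p = 0.0511). With covariates for ribosomal-RNA-like and mitochondrial FPKM, the differences were −1.75 for Apoe, −0.84 for Csf1r and −0.67 for Adgre1 (adjusted p = 0.000164, 0.0213 and 0.0522). The list mean was lower in the high tumours of every treatment, by −0.40 in ESK981, −1.25 in the combination, −0.40 in anti-PD-1 and −0.65 in vehicle.

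Lysosomal genes fell in part with them. Of 28 genes of autophagy and the lysosome, 5 were called lower and 0 higher (median −0.10), 15 after rescaling and 9 without the 5 tumours. Of all genes, 2.01%, 8.71% and 7.09% were called lower in these fits. Ctsd, the protease cathepsin D, had 42.3, 61.4 and 91.5 FPKM in high tumours and 54.6, 111 and 143 in low tumours (−0.82 ± 0.16, adjusted p = 0.000377). Ctsb, cathepsin B, differed by −0.73 ± 0.15 (adjusted p = 0.000448) and Ctsa, cathepsin A, by −0.49 ± 0.13 (adjusted p = 0.00634), and these 3 genes were stable. Their calls were lost on mouse means with the score (slopes of −0.26, −0.20 and −0.09, adjusted p = 0.115, 0.29 and 0.594) and held within mice (−1.08, −0.92 and −0.68, adjusted p = 0.0377, 0.0235 and 0.0401). Macrophages are rich in these proteases, and the part of the macrophage markers in this difference was not tested. Beside these stood Wfdc17 and Ccl8, a secreted inhibitor and a chemokine made by macrophages, at −1.79 ± 0.35 and −1.53 ± 0.35 (adjusted p = 0.000349 and 0.00157). F13a1, a coagulation factor subunit of macrophages, differed by −1.59 ± 0.29 (adjusted p = 0.000176). On mouse means with the score Wfdc17, Ccl8 and F13a1 lost their calls (limma slopes of −0.44, −0.54 and −0.43, adjusted p = 0.246, 0.138 and 0.168). Within mice Wfdc17 kept its call (−2.24, adjusted p = 0.0401), and Ccl8 and F13a1 did not (−1.55 and −1.79, adjusted p = 0.114 and 0.0531).

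Some genes that fell are known from epithelium and secretion. Psca, the prostate stem cell antigen (chromosome 15, 74714839 to 74717069, plus strand), had a lowest, median and highest FPKM of 12.8, 38.3 and 72.4 in high tumours, against 61.3, 102 and 178 in low tumours (−1.53 ± 0.24, adjusted p = 2.25e-05). Klk1b16, a kallikrein protease, differed by −1.47 ± 0.32 (adjusted p = 0.00111). Gpx3, the secreted glutathione peroxidase (chromosome 11, 54902453 to 54910377, plus strand), had 10.4, 26.8 and 38.9 FPKM in high tumours and 27.7, 50.1 and 192 in low tumours (−1.75 ± 0.25, adjusted p = 7.23e-06). It was the only one of the 12 genes with the largest falls whose group-centred classes did not overlap. These 12 were likewise picked by their difference between the classes. Psca, Klk1b16 and Gpx3 were stable. On mouse means with the score, Psca and Klk1b16 lost their calls (slopes of −0.49 and −0.56, adjusted p = 0.0639 and 0.0758), and within mice Klk1b16 and Gpx3 did (−1.64 and −1.59, adjusted p = 0.0637 and 0.0767).

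Of 14 genes known from luminal prostate, 7 were tested, of which 1 was called higher and 0 lower. The called gene was the homeobox factor Hoxb13, at 0.39 ± 0.14 (adjusted p = 0.0418), a call lost after rescaling (adjusted p = 0.558). Pbsn, which codes for the prostate secretory protein probasin, was listed at 0 in all tumours. Of 8 tested genes of epithelial keratins and adhesion, 2 were called higher, a share near the 22.5% of all genes, and 0 after rescaling. The 2 were the epithelial factor Grhl2 (0.28, adjusted p = 0.00781) and the claudin Cldn3 (0.36, adjusted p = 0.0458). The luminal keratin Krt8 had 6.53, 33.2 and 34.7 FPKM in high tumours and 4.55, 14.5 and 23.5 in low tumours (1.04 ± 0.44, adjusted p = 0.0827), and did not pass the test.

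T cell genes depended on which low tumours were counted. Of 12 T cell markers, 0 were called in either direction by limma on deposited FPKM, and 10 were called lower in the high class without the 5 tumours (median −0.17 and −0.70). Of all genes, 7.09% were called lower without the 5. In that fit the ESK981 tumours left are all high, so the differences rest on the other treatments. Among 10 genes of CD8 T and NK cells, 0 were called with all tumours and 7 lower without the 5 (median −0.28 and −1.09), and in the interferon gamma response 0 and 11 of 19 (median 0.00 and −0.95). Summed T cell FPKM had a lowest, median and highest value of 2.003, 5.61 and 14.2 in high tumours and of 1.42, 12.4 and 20.7 in low tumours, so the low class spanned the whole range. Cd3e, a T cell receptor chain, differed by −0.23 ± 0.28 (adjusted p = 0.567) with all tumours and by −1.02 without the 5 (adjusted p = 0.0068). The direction also varied by treatment. The T cell list mean differed by −1.06 between the 1 high and the 4 low tumours of the combination, and by 0.44 between the 2 high and the 2 low tumours of anti-PD-1, of which anti-PD-1 4R is a low one.

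Stroma showed a weaker pattern. Of 16 fibroblast and matrix genes, 2 were called lower and 0 higher (median −0.31), and 6 were lower after rescaling. Of all genes, 2.01% and 8.71% were called lower in these fits. Col3a1, the collagen of loose connective tissue, had 5.27, 9.26 and 18.5 FPKM in high tumours and 6.01, 35.4 and 75.5 in low tumours (−1.19 ± 0.40, adjusted p = 0.0289), a call lost without vehicle mouse 1, vehicle mouse 4 or combination mouse 1 (−0.97, −1.004 and −1.18, adjusted p = 0.117, 0.0798 and 0.0551). It was also lost with the covariates (−0.80, adjusted p = 0.21), within mice (−1.15, adjusted p = 0.244) and on mouse means with the score (slope −0.24, adjusted p = 0.624). On the flow cell shared by all treatments, where vehicle adds nothing to the difference, it was lost too (−0.71, adjusted p = 0.204). Col1a1 did not pass (−0.74 ± 0.34, adjusted p = 0.109). Of 12 endothelial markers 0 were called, and Pecam1 did not pass (0.29 ± 0.23, adjusted p = 0.387), and 0 were called in the lists of pericytes, skin, skeletal muscle and red blood cells. Of the 13 mitochondrially encoded genes 4 were lower in the high class (median −0.78), among them mt-Nd5 at −0.95 ± 0.31 (adjusted p = 0.0247). Its call was lost without vehicle mouse 1, vehicle mouse 5 or combination mouse 1 (−0.72, −0.81 and −0.87, adjusted p = 0.104, 0.0501 and 0.0687). It was also lost on the shared flow cell (−0.54, adjusted p = 0.269), within mice (−1.13, adjusted p = 0.212) and on mouse means with the score (slope −0.25, adjusted p = 0.407).

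**Figure D5:**
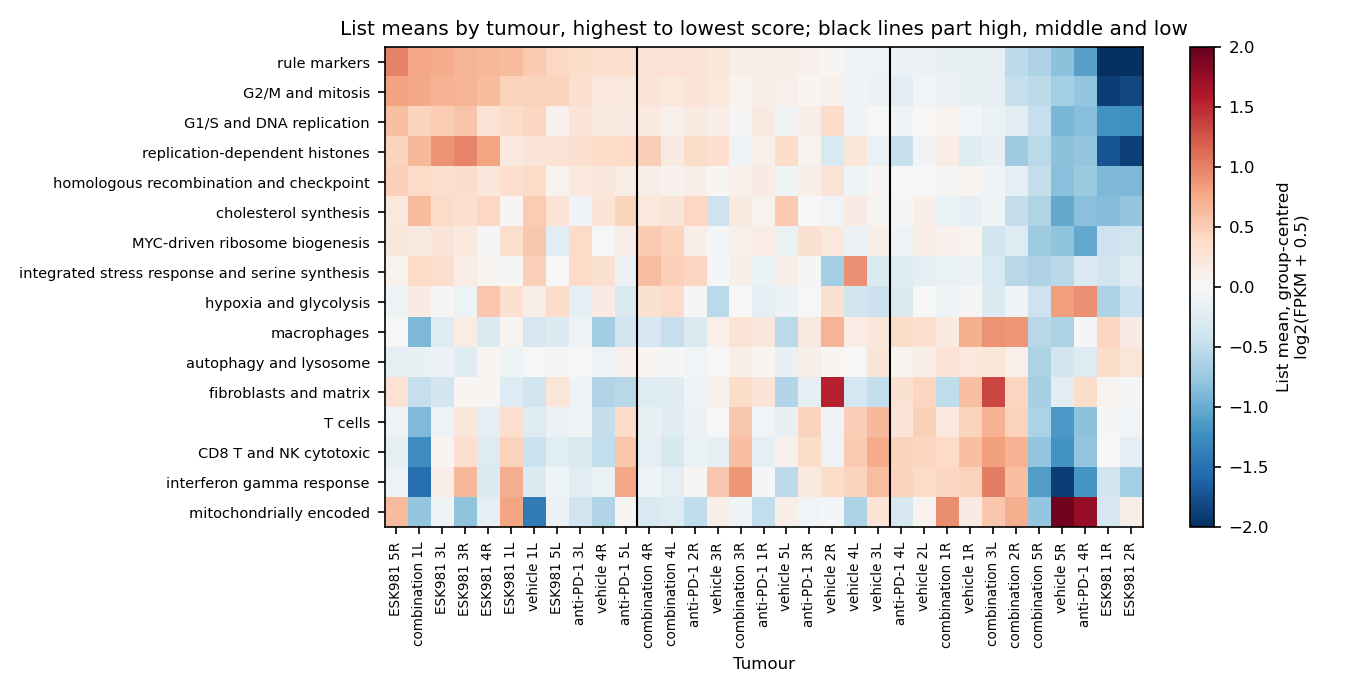
Mean group-centred log2(FPKM + 0.5) of 16 lists in each tumour, ordered from the highest to the lowest score, with black lines between high, middle and low tumours. Cycle lists grade from red to blue, while macrophage, T cell and interferon lists are mostly red in the 6 low tumours with the higher scores and mostly blue or pale in the 5 with the lowest.

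The 3 mice with a high left and a low right tumour showed many of the same differences inside an animal. These tumours also belong to the classes, so they are no independent sample. The mean of the G2/M list was 0.61 higher in the high tumour of vehicle mouse 1, 2.34 higher in ESK981 mouse 1 and 0.88 higher in combination mouse 1, and the cholesterol list 0.68, 0.91 and 0.75 higher. The macrophage list mean differed by −1.04, −0.37 and −1.09 in the same order of mice. The 11 genes named for the largest rises were all higher in the high tumour of each of these mice. Of the 12 with the largest falls, 10, 12 and 12 were lower. T cell genes took both signs, with list means of −0.70, 0.37 and −1.08.

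In group-centred means, the cycle, cholesterol and macrophage lists had the same sign among the tumours of each flow cell. A fit on the flow cell that held 9 high and 9 low tumours called 2731 genes (17.2%) higher and 236 (1.49%) lower. The only vehicle tumour there was a low one, so with a term per treatment it added nothing to this difference. The fit was in effect the one without the vehicle group (2732 higher and 236 lower), and is no separate check of the flow cell. The G2/M list mean was 1.30 higher, the cholesterol list 0.83 higher and the macrophage list lower by −0.41 in the high tumours of this flow cell. These means count that vehicle tumour, which was centred on a group mostly from the other flow cell. They are thus not wholly a comparison within a flow cell. The other flow cell held vehicle tumours alone, 2 high and 2 low, and had values of 0.44, 0.41 and −1.03 for these lists, with no test of its own run here. T cell list means differed by 0.06 in the shared flow cell and by −0.83 in the other.

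ESK981 1R and ESK981 2R formed a pair of their own among the low tumours. They came from different mice, shared 0 identical gene values, and differed by more than counting noise (chi-square of 7.41 per degree of freedom over 11903 genes). Mki67 had 2.80 and 2.70 FPKM there, against 25.9 to 36.1 in the other 6 ESK981 tumours, which were all in the high class. Gpx3 had 192 and 160 FPKM, against 18.2 to 38.9 in the other 6. Agt, angiotensinogen, had 77.3 and 67.5 FPKM, against 1.35 to 8.43, and the matrix proteoglycan Ogn had 18.5 and 20.9, against 0.0218 to 0.951. The calls of Agt and Ogn rested on this pair: without it their differences were −0.23 (adjusted p = 0.729) and −0.14 (adjusted p = 0.852), against −1.49 and −1.498 with it. Inmt and Hp likewise lost their calls (−0.97 and −0.75, adjusted p = 0.202 and 0.1004).

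The calls for a relation to the score that differed between treatments also rested on that pair. A limma test of the interaction of score and treatment called 6582 genes (41.5%) over all tumours. Without ESK981 1R and 2R it called 0, with 2000 genes at an unadjusted p under 0.05 and a smallest adjusted p of 0.0576. The slopes of 3 of the 5 named genes with the smallest p follow. Bmi1, a Polycomb subunit that represses the Cdkn2a locus, had slopes on the score of −0.03 in ESK981, 0.94 in the combination, 1.22 in anti-PD-1 and 1.12 in vehicle (log2 per unit of score). Cdkn2c, the CDK4 and CDK6 inhibitor p18, had slopes of 0.02, 0.60, 1.03 and 0.94 in the same order. Kpna2, a nuclear import receptor, had a slope of 0.56 in ESK981 and of 0.91, 1.49 and 1.12 in the combination, anti-PD-1 and vehicle.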

How the data were processed

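Gene expression was measured by RNA sequencing of total RNA, depleted of ribosomal RNA, from 33 tumours. The authors deposited FPKM values for 48795 genes, made with STAR and featureCounts on build mm10, per the submitters' processing notes. No source used here gives tool versions, the annotation or the use of strand, so overlapping, antisense and near-identical genes are uncertain. Each value column belonged to 1 tumour, with 0 left over. Low FPKM values multiplied by GENCODE M21 exon length were whole fragments in 100% of cases (within 0.01), which gave the depth of 9.90e+06 to 3.24e+07 fragments. FPKM are not counts, so no count model was fitted.

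Genes that reached an FPKM of 0.5 in 5 or more tumours were tested (15843, of which 11636 protein-coding), without the 3 genes of the score. The values log2(FPKM + 0.5), which understate the change of low genes, were fitted in limma 3.58.1 (R 4.3.3) with a mean-variance trend. Terms were treatment and class (high, middle, low), with the mouse as a random block (correlation 0.20). Tests were two-sided, with Benjamini-Hochberg adjustment over all genes and a threshold of 0.05. The interaction of treatment with the continuous score was tested in the same way. Estimates carry SE, and the script was tested on simulated data. Tables were handled in Python 3.11.15.

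The tumours compared and the 35 lists were chosen with earlier results of these data known, and lists are described by counts and medians with no test. No pair of tumours in a group agreed within counting noise. Genes named were, among those called that carry a proper gene symbol and a mean FPKM of at least 2 in the higher class, the 12 protein-coding genes with the largest rise and the 12 with the largest fall outside the cycle lists, up to 4 members of each list by p, up to 5 genes of the interaction, the 3 genes of the score, and 18 genes whatever their result. Some genes picked by this rule are not reported here. Ccnb2 was chosen after its values were seen, for its promoter. The flow cell, the mouse, the treatments, the scaling, the pseudocount, the filter and covariates for ribosomal and mitochondrial RNA were varied as alternatives. Leaving out the 5 low tumours together, rebuilding the classes from rescaled values and a fit within the 13 mice with both flanks (mouse as a fixed term) were chosen after seeing the data.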

Additional observations from a re-analysis of the deposited data

Results flagged for a closer look

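Within treatment groups, 10 values of single tumours lay far from the rest by Dixon's test, among 28 groups of values tested. For independent values, chance alone marks about 1 in 20 groups, but these are not independent, as the score is built from Mki67, Top2a and Cdk1. Most of the 10 belong to low tumours. The score and Mki67 ranked the tumours, so their flags are a description and no test of the classes. The score was −0.82 in vehicle 5R and −1.09 in anti-PD-1 4R (−0.19 and −0.55 after rescaling). Mki67 was at 7.50 FPKM in anti-PD-1 4R. Anti-PD-1 4R also had 1.13e+07 fragments, 179159 ribosomal-RNA-like FPKM and 52728 mitochondrial FPKM, and vehicle 5R had 90856 mitochondrial FPKM. Combination 5R had 500377 ribosomal-RNA-like FPKM. Among high tumours, combination 1L had 35.5 FPKM of Mki67 and ESK981 3R had 86387 ribosomal-RNA-like FPKM.

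For 5 named genes the slope on the score differed between treatments by the limma interaction test over all tumours. The adjusted p was 3.59e-06 for Bmi1, 3.59e-06 for Ppp1r2, 3.59e-06 for Cdkn2c, 3.59e-06 for Rcn1 and 2.62e-05 for Kpna2. Rcn1, a calcium-binding protein of the endoplasmic reticulum, had slopes of −0.38 in ESK981, 0.97 in the combination, 0.13 in anti-PD-1 and 0.22 in vehicle, and Ppp1r2, an inhibitor of protein phosphatase 1, had slopes of −0.03, 0.85, 0.75 and 0.35 in the same order. Rcn1 stood at 76.7 and 75.2 FPKM in ESK981 1R and 2R, against 31.4 to 40.5 in the other 6 ESK981 tumours. Without ESK981 1R and 2R no gene passed the interaction test.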

How the results depend on the processing

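The number of genes called between high and low tumours, 3888, lay between 102 and 4880 over 40 alternatives. With covariates for ribosomal and mitochondrial RNA, 2463 genes were higher and 306 lower. The count moved by more than 1.5 times under 2 of them, the score as a continuous term on mouse means (2395) and the fixed mouse block over the 13 mice with both flanks (102). Leaving out 1 mouse at a time gave 3075 to 4435. After rescaling, 10 of 11 high and 10 of 11 low tumours kept their class and 0 crossed over. The interaction count of 6582 fell to 4056 after rescaling and to 0 without ESK981 1R and 2R. For the 3 mice with a high and a low tumour only differences were computed, with no call. Mouse numbers pair nothing across treatments, so no block across treatments was fitted.

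Over 99 named genes and these alternatives, 3478 comparisons kept direction and call, 422 lost the call, 14 gained it and 43 changed sign. The sign changes concern 9 genes, 2 of them called on all tumours, and their causes were not tested. The called genes are Ogn (0.34 without the 5 tumours) and Cldn3 (−0.0430 without the 5). Values for the uncalled genes follow. After rescaling the log2 difference was −0.0428 for Rb1, −0.203 for Myc and −0.210 for Vegfa, and with rebuilt classes −0.0545, −0.0383 and −0.107. Without the 3 libraries that stood apart it was −0.0630 for Pecam1, −0.0219 for Rb1 and −0.0343 for Myc. Without all 5 tumours it was −0.109 for Pecam1 and −0.0250 for Rb1. With ribosomal and mitochondrial covariates it was −0.0573 for Pecam1, −0.121 for Myc and 0.0359 for Cdkn1a. Without ESK981 1R and 2R it was −0.267 for Vegfa, and without the ESK981 group −0.272. Without the combination group it was −0.146 for Myc, 0.0488 for Cdkn1a, −0.169 for Vegfa and 0.0736 for Cd3e. Without the anti-PD-1 group it was −0.0488 for Myc, and with the fixed mouse block −0.109. On the high and low tumours alone it was −0.0346 for Vegfa, and with tumours taken as independent −0.0014. The slope on the score was −0.0213 for Vegfa, 0.125 for Cd3e and 0.0297 for Cd8a, and on mouse means 0.0795 for Cdkn1a, 0.0951 for Cd3e and 0.0165 for Cd8a. Leaving out 1 mouse at a time, Myc lay between −0.16 and 0.10, Cdkn1a between −0.158 and 0.0537 and Vegfa between −0.0810 and 0.27.

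Depth limits genes of low level most in vehicle 5R and anti-PD-1 4R, and intervals for T cell markers rest on few fragments. Treatment and class are unevenly crossed, and the flow cell of 9 vehicle tumours holds no other group, so the vehicle group and that flow cell cannot be told apart there.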
